A study of Mus musculus with 4 samples.

Results

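The let-7 precursor family of the mouse was examined in whole brain with and without ADAR2, an RNA editing enzyme encoded by Adarb1 that deaminates adenosines within RNA duplexes. Its members were taken from the deposited array table by symbol, as every transcript cluster named Mirlet7 or Mir98. A transcript cluster is the group of array probes assigned to a transcribed locus. The rule found 14 clusters of 12 precursor genes among 33793 clusters in the table. As a family it was selected on the measured genotype difference of Mirlet7c-2 in these same arrays, so the difference between genotypes is described for all members without a test.

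Total RNA came from whole brains of adult female mice of strain 129SV. There were 2 wild type arrays and 2 Adar2-/- arrays. Per the study's methods, both genotypes were siblings from crosses of Adar2 heterozygous mice and carried the pre-edited Gria2 R/R allele, which rescues the early death of Adar2-/- mice. The methods speak of total RNA from 2 wild type and 2 Adar2-/- for the arrays and of biological replicates for RNA preparation. The labels do not say that arrays of a genotype came from separate animals, and if they did not, p-values measure only technical spread. Whole brain is a mixture of cells, and fewer cells of a type cannot be told apart from less RNA per cell.

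The let-7 microRNAs are processed from hairpins that form within longer primary transcripts. DROSHA with DGCR8 releases the hairpin in the nucleus, XPO5 exports it and DICER1 cuts out the mature strands, which guide Argonaute proteins to messenger RNAs. Pairing between a target and the seed, bases 2 to 8 of the microRNA, sets most of the choice of targets. In the nervous system let-7 is known for its rise as progenitors become neurons, and LIN28 proteins hold its processing back in immature cells. Hairpins are double-stranded and so are possible substrates of ADAR enzymes. A cluster placed over a hairpin detects RNA that holds hairpin sequence, and mature microRNAs were not measured on these arrays.

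All 12 genes were matched to RefSeq microRNA entries of GRCm38.p6. They encode 9 distinct 5p microRNAs, each 22 bases long, and all carry 1 seed, GAGGUAG. RefSeq lists no 5p entry under Mirlet7a-2, whose hairpin holds the let-7a-5p sequence. The 5p strands are shown to make plain how little separates the members. Sequences are written 5′ to 3′ with the seed in capitals.
let-7a-5p (Mirlet7a-1, Mirlet7a-2): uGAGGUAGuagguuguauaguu
let-7b-5p (Mirlet7b): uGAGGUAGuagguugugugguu
let-7c-5p (Mirlet7c-1, Mirlet7c-2): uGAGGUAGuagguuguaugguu
let-7d-5p (Mirlet7d): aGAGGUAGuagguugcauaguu
let-7e-5p (Mirlet7e): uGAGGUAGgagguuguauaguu
let-7f-5p (Mirlet7f-1, Mirlet7f-2): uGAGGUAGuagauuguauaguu
let-7g-5p (Mirlet7g): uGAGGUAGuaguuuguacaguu
let-7i-5p (Mirlet7i): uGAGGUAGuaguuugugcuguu
miR-98-5p (Mir98): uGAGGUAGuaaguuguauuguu

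Counted from 1 at the 5′ end, let-7c-5p differs from let-7a-5p by A19G alone and let-7b-5p by A17G and A19G. The other single changes were U9G in let-7e-5p and G12A in let-7f-5p. The most distant member was let-7i-5p, with G12U, A17G, U18C and A19U. Of 1679 mature mouse microRNAs in the RefSeq table, 11 entries carry this seed.

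The 3p strands tell the precursors of 1 microRNA apart better than the 5p strands do, with 11 distinct sequences among 12. The exception is the pair that matters for Mirlet7c-2. Its 3p strand is the same as that of Mirlet7a-1 on another chromosome, and it differs from those of Mirlet7c-1, which encodes the same let-7c-5p, and of Mirlet7b, its neighbour. The 4 strands are printed in lower case throughout.
let-7c-2-3p: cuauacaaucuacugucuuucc
let-7a-1-3p: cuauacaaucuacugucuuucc
let-7c-1-3p: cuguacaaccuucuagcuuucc
let-7b-3p: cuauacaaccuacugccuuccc

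Over the whole hairpins, 66 pairs of members were compared by their longest identical run of bases. The median run was 11 bases. The longest, 26 bases, was between Mirlet7a-1 and Mirlet7c-2, and it was the only run of at least 25 bases. Mirlet7c-2 shared 23 bases with Mirlet7c-1 and 19 with Mirlet7b.

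The table names no genome build. The 12 clusters on the strand of the hairpin nevertheless had exactly the RefSeq hairpin spans of GRCm38.p6. The remaining 2 lay over Mirlet7f-1 and Mirlet7e on the opposite strand and read antisense RNA. Clusters held 8 to 21 probes, and 6 of 14 were marked in the table as having probes that can cross-hybridize, namely Mirlet7f-1, Mirlet7a-2, Mirlet7b, Mirlet7c-2, Mirlet7c-1 and Mirlet7f-2. Such probes can bind RNA of other loci, and values of these clusters are uncertain as measures of 1 gene.

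Most members were dim. The table holds no detection calls, so the limit of background was set on each array at the 95th percentile of 1126 clusters of olfactory receptor genes, a family that is largely silent in brain. This limit was 5.64 and 5.59 on wild type replicates 1 and 2, and 5.75 and 5.73 on Adar2-/- replicates 1 and 2, in log2 signal. By it 11 of 14 members were at background on every array, or 78.6%. Among the other 572 clusters with a microRNA symbol the share was 60.1%, and among all clusters 39.9%. Mirlet7e was the single member above the limit on all 4 arrays. Mirlet7a-1 passed it on Adar2-/- replicate 2 and Mirlet7c-2 on wild type replicate 2 only.

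**Figure D1:**
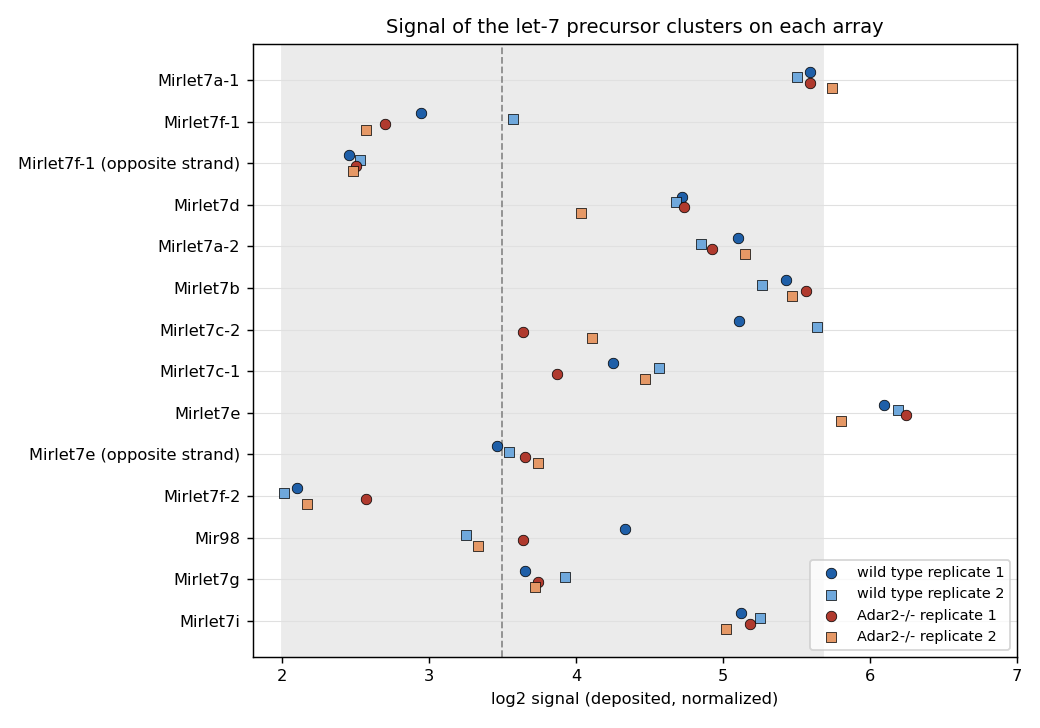
Log2 signal (x axis) of the 14 let-7 precursor clusters (y axis) on the 4 arrays, with 1 point per array. The grey area ends at the mean background limit and the dashed line is the mean of the olfactory receptor medians. Mirlet7e alone sits right of the grey area on all 4 arrays, and Mirlet7c-2 shows its 2 Adar2-/- points well left of its 2 wild type points.

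The largest difference of the family was that of Mirlet7c-2 (chr15:85706603-85706697, plus strand, 9 probes), 1 of 2 precursors of let-7c. Its log2 signal was 5.11 and 5.64 in wild type, and 3.64 and 4.11 in Adar2-/- brain. Both Adar2-/- arrays were below both wild type arrays, and the gap between the genotypes exceeded that between replicates. The family was selected on this difference, so neither point is support for it. The means were 5.38 ± 0.375 (SD, n = 2) and 3.88 ± 0.332 (SD, n = 2), a difference of -1.50 on the log2 scale with an SE of 0.231 from the fit to the whole table, or 2.83-fold. On the wild type arrays the cluster stood at percentiles 89.6 and 95.2 of the olfactory receptor clusters, and on the Adar2-/- arrays at 53.6 and 67.4. The wild type mean was itself under the mean limit of 5.61, so the fold rests on signals within the range of background and no bound for it was given.

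Mirlet7c-2 was the only member at least 2-fold lower in Adar2-/- brain, a share to be set beside 0.0326% of all clusters (11 of 33793), though this is the value on which the family was selected. Its rank as the largest fall among 586 microRNA clusters describes this same value, at signals around the background limit, and supports nothing further.

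Mirlet7b, the let-7b precursor, lies 621 bases downstream of Mirlet7c-2 on the same strand (chr15:85707319-85707403). RefSeq places both within the span of 1 long non-coding RNA, Lncppara, also called Mirlet7bhg, for which the table has no cluster of that name. Mirlet7b read 5.43 and 5.26 in wild type, and 5.56 and 5.47 in Adar2-/- brain. Here both Adar2-/- arrays were slightly above the wild type arrays, with a difference of 0.17 and an SE of 0.116. The signal of Mirlet7c-2 minus that of Mirlet7b was -0.32 and 0.38 in wild type, and -1.92 and -1.36 in Adar2-/- brain. The offset between clusters with different probes has no meaning of its own. It changed by -1.67 between genotypes, of which -1.50 is the Mirlet7c-2 difference itself, and Mirlet7b was under the background limit on all 4 arrays.

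Mirlet7c-1 (chr16:77599657-77599750, plus strand), which encodes the same mature let-7c-5p, read 4.25 and 4.56 in wild type, and 3.87 and 4.47 in Adar2-/- brain. The genotypes overlapped, and the difference of -0.24 (SE 0.223) was smaller than the gap of 0.60 between the Adar2-/- arrays. Mirlet7a-1, with which Mirlet7c-2 shares its 3p strand, also overlapped. It read 5.59 and 5.50 in wild type, and 5.59 and 5.74 in Adar2-/- brain.

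Mirlet7a-1 begins a cluster of 3 precursors on the minus strand of chromosome 13. Mirlet7f-1 follows after 261 bases (chr13:48537829-48537917) and Mirlet7d after a further 1714 bases (chr13:48536012-48536114). Mirlet7f-1 read 2.94 and 3.57 in wild type, and 2.70 and 2.57 in Adar2-/- brain. Both Adar2-/- arrays were lower, by 0.62 in the mean (SE 0.214), which is about the gap of 0.63 between the 2 wild type arrays. All 4 values were far under the limit, at percentiles 12.9 to 53.1 of the olfactory receptor clusters. The cluster on the opposite strand read 2.45, 2.53, 2.50 and 2.48 on wild type replicates 1 and 2 and Adar2-/- replicates 1 and 2, with no difference in the means.

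Mirlet7d read 4.72 and 4.68 in wild type, and 4.73 and 4.03 in Adar2-/- brain. Its difference of -0.32 (SE 0.229) came from Adar2-/- replicate 2 alone, as replicate 1 was at the wild type level. Mirlet7d was under the background limit on all 4 arrays.

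Mirlet7e (chr17:17830352-17830444, plus strand), the member above background, read 6.09 and 6.19 in wild type, and 6.24 and 5.80 in Adar2-/- brain. The genotypes overlapped, with a difference of -0.12 (SE 0.167). Its percentiles among olfactory receptor clusters ranged from 95.4 to 98.0. The opposite strand read 3.46 and 3.54 in wild type, and 3.65 and 3.74 in Adar2-/- brain, both dim.

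On chromosome X, Mirlet7f-2 and Mir98 lie 785 bases apart within Huwe1, a ubiquitin ligase gene. Mirlet7f-2, the second let-7f precursor, read 2.10 and 2.01 in wild type, and 2.57 and 2.17 in Adar2-/- brain. Both Adar2-/- arrays were higher, by 0.32 in the mean (SE 0.157), at signals no higher than percentile 12.6 of the olfactory receptor clusters. Mir98 had the widest gap between replicates of any member, at 4.33 and 3.25 in wild type against 3.64 and 3.33 in Adar2-/- brain, and its genotypes overlapped.

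The remaining 3 members are single hairpins apart from other let-7 genes. Mirlet7a-2 on chromosome 9 read 5.10 and 4.85 in wild type, and 4.92 and 5.15 in Adar2-/- brain. Mirlet7g, within Wdr82 on chromosome 9, read 3.65 and 3.92 in wild type, and 3.74 and 3.72 in Adar2-/- brain. Mirlet7i on chromosome 10 read 5.12 and 5.25 in wild type, and 5.18 and 5.02 in Adar2-/- brain. In each of them the genotypes overlapped.

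**Figure D2:**
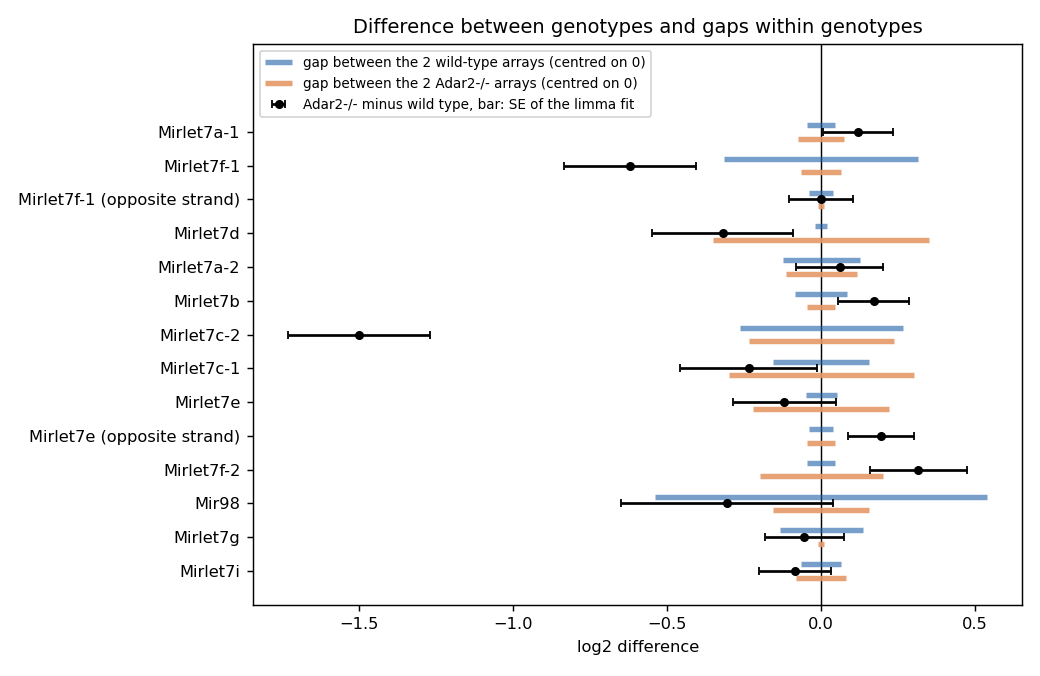
Difference between genotypes (points, log2, Adar2-/- minus wild type, with the SE of the limma fit) for the 14 let-7 precursor clusters. Bars centred on 0 show the gap between the 2 arrays of each genotype. The point of Mirlet7c-2 at -1.50, the value on which the family was selected, is far outside its bars. Most other points lie within or close to theirs. A difference outside its bars can still be smaller than the gap, as for Mirlet7f-1.

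In all, 9 of 14 members overlapped between genotypes. In 2 both Adar2-/- arrays were lower (Mirlet7c-2 and Mirlet7f-1), against 16.5% of all clusters and 10.3% of the olfactory receptor clusters. In 3 both were higher (Mirlet7b, Mirlet7f-2 and the opposite strand of Mirlet7e), against 17.7% of all clusters and 24.2% of the olfactory receptor clusters. The members' median difference was -0.07, beside 0.005 over all clusters, 0.045 over the other microRNA clusters and 0.055 over the olfactory receptor clusters. Without Mirlet7c-2, the differences of the other 13 clusters ranged from -0.62 to 0.32.

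**Figure D3:**
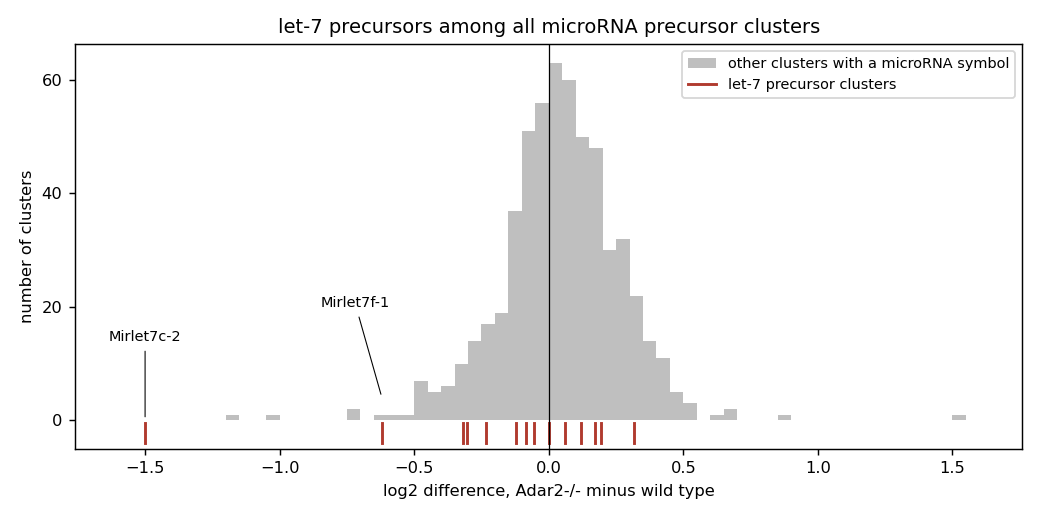
Histogram of the log2 difference, Adar2-/- minus wild type, over the 572 other clusters with a microRNA symbol (grey, number of clusters on the y axis), with the 14 let-7 precursor clusters as red ticks. Mirlet7c-2 at -1.50 is the lowest of all 586 and Mirlet7f-1 at -0.62 the sixth lowest.

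Across all 33793 clusters limma called 0 (0.0%) at an adjusted p below 0.05. At an unadjusted p below 0.05 it called 2009 (5.95%), of which 1230 were higher (3.64%) and 779 lower (2.31%) in Adar2-/- brain. The lists that follow are read against these shares. Array medians ranged from 6.03 to 6.09. The targeted gene, Adarb1, was lower on both Adar2-/- arrays, at 9.16 and 8.96 against 10.50 and 10.45 in wild type. Its limma adjusted p was 0.409. Defining markers of neurons, astrocytes and oligodendrocytes were above the background limit on all arrays, at 8.47 to 13.16. Of the microglia markers, Cx3cr1 and Tmem119 were above it, while Aif1 was near it on every array and under it on Adar2-/- replicate 1. Of these markers 1 passed an unadjusted p below 0.05, the myelin gene Mog, at 10.11 and 10.21 in wild type, and 9.90 and 9.72 in Adar2-/- brain. Of 5 blood clusters 1 passed it, Alas2, the heme synthesis enzyme of red cells, lower by 0.74 (SE 0.292) in Adar2-/- brain. Alas2 read 8.71 and 7.90 in wild type, and 7.34 and 7.80 in Adar2-/- brain. The log2 of the summed signal of all 5 was 9.89 and 9.67 in wild type, and 9.18 and 9.97 in Adar2-/- brain. By this sum the genotypes overlapped. The part of oligodendrocytes or blood in the let-7 values was not tested.

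Transcripts that share a locus with a let-7 hairpin were examined next, since a hairpin and its host can come from 1 primary transcript. Of 13 such clusters 1 passed an unadjusted p below 0.05, Mir125b-1, and it was higher. Mir125b-1, downstream of Mirlet7a-2 in the Mir100 cluster, read 2.30 and 2.02 in wild type, and 2.55 and 2.74 in Adar2-/- brain. The difference was 0.49 (SE 0.142, limma adjusted p = 0.834), at signals under the limit on every array. The call was lost without wild type replicate 2 or Adar2-/- replicate 2, and in the pooled-variance test without shrinkage. A fit with a replicate block also ended the call. Mir100 itself read 4.59 and 4.27 in wild type, and 4.43 and 4.57 in Adar2-/- brain. The long non-coding host of Mir100 and Mir125b-1, D230004N17Rik, now Mir100hg, differed by 0.17 (SE 0.124).

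No protein-coding host or neighbour passed the limma test. Huwe1, which holds Mirlet7f-2 and Mir98, read 10.14 and 10.13 in wild type, and 10.09 and 10.14 in Adar2-/- brain. Wdr82, a subunit of a histone methyltransferase complex, read 10.74 and 10.73 in wild type, and 10.58 and 10.63 in Adar2-/- brain, a difference of -0.13 (SE 0.102). Mon2, a membrane trafficking gene beside Mirlet7i, differed by -0.07.

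At the Mirlet7e locus the 4 transcripts did not share a direction. Ncrna00085, now placed in Spaca6, read 8.12 and 8.04 in wild type, and 7.96 and 7.92 in Adar2-/- brain. Mir99b read 8.32 and 8.29 in wild type, and 8.34 and 8.54 in Adar2-/- brain. Mir125a read 3.94 and 3.92 in wild type, and 4.42 and 3.94 in Adar2-/- brain. Mir99b and Ncrna00085 did not overlap between genotypes, with differences of 0.14 (SE 0.117) and -0.14 (SE 0.104) that did not pass the test.

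At the Mirlet7c-1 locus the long non-coding RNA 2810055G20Rik, now Mir99ahg, whose cluster ends upstream of Mir99a and Mirlet7c-1, differed by 0.04 (SE 0.15), Mir99a by 0.17 (SE 0.23) and Mir125b-2 by -0.085. An unnamed cluster on the opposite strand differed by -0.01. Over the 13 clusters the median difference was 0.04 and the lowest adjusted p was 0.834. None of them lies at the Mirlet7c-2 locus.

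**Figure D4:**
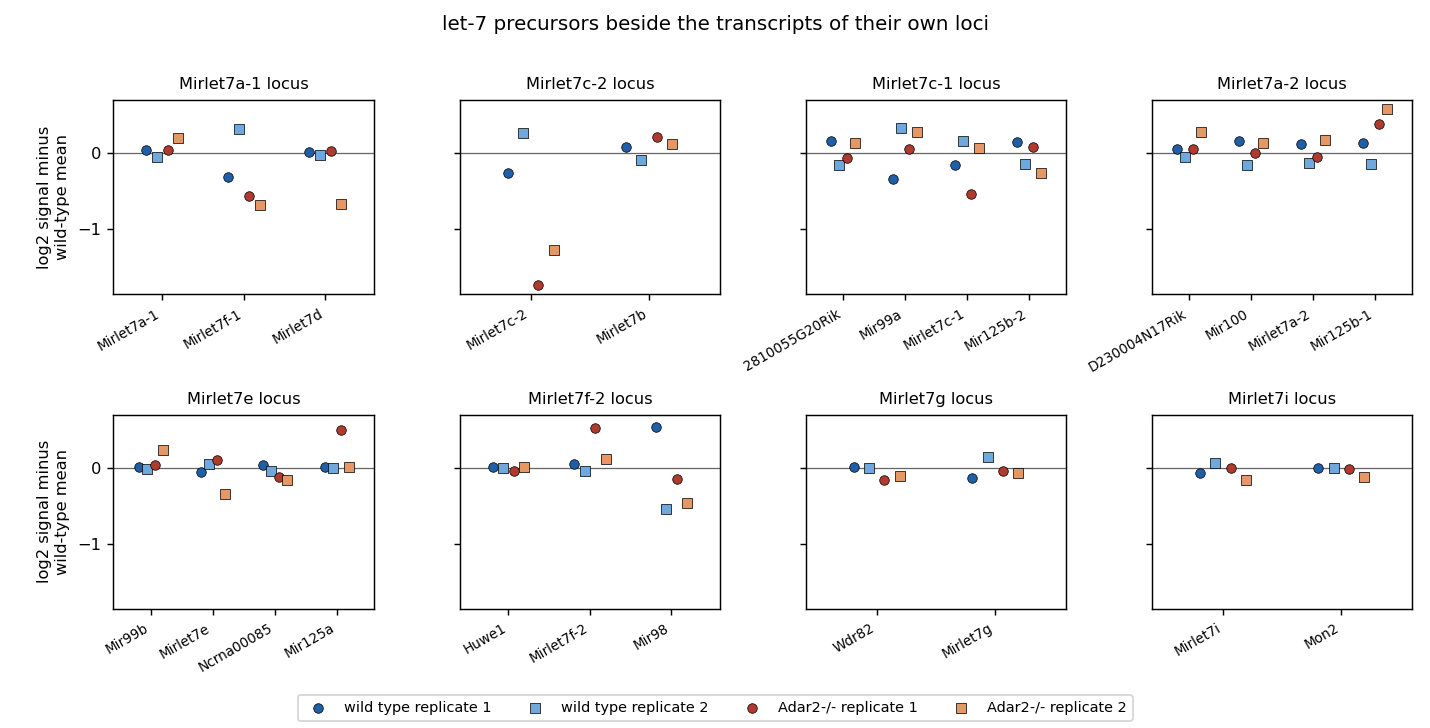
Log2 signal minus the wild type mean of the same cluster (y axis) for let-7 precursors and the transcripts of their loci, with 1 point per array and 1 panel per locus. Only Mirlet7c-2 has points below -1.0, while Mirlet7b in the same panel stays within 0.50 of its wild type mean.

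Genes that make or control let-7 were measured by 21 clusters, of which 19 were above the background limit on all 4 arrays. None passed an unadjusted p below 0.05 in limma with genotype alone. With a replicate block limma called 1, Lin28b. The pooled-variance test without shrinkage called 1, Dis3l2, the nuclease that degrades uridylated pre-let-7, at a difference of -0.065. Differences ranged from -0.19 to 0.28 with a median of 0.02. The largest was that of Lin28b, which blocks let-7 maturation. It read 5.61 and 5.47 in wild type, and 5.87 and 5.76 in Adar2-/- brain, so that both Adar2-/- arrays were higher, by 0.28 (SE 0.114, limma adjusted p = 0.834). Lin28b was under the background limit on both wild type arrays and close above it on the Adar2-/- arrays. Its paralogue Lin28a differed by 0.03.

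None of the processing enzymes passed the test, with Drosha at -0.05 (SE 0.102), Dgcr8 at 0.06 (SE 0.103), Xpo5 at -0.03 (SE 0.113) and Dicer1 at 0.03 (SE 0.12). The terminal uridylyltransferases, which tag pre-let-7, differed by -0.175 for Zcchc6 and 0.115 for Zcchc11. Lin28b, Lin28a and these enzymes were named after their values were seen.

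Genes known from elsewhere as let-7 targets were 25, measured by 27 clusters. Only Nr2e1, a nuclear receptor of neural stem cells, passed an unadjusted p below 0.05. Nr2e1 read 7.74 and 7.56 in wild type, and 7.36 and 7.34 in Adar2-/- brain, a difference of -0.30 (SE 0.114, limma adjusted p = 0.834). It was lower on both Adar2-/- arrays, but the call was lost without wild type replicate 1 or either Adar2-/- replicate, and in the pooled-variance test without shrinkage. A fit with a replicate block also ended the call of Nr2e1. The largest difference in size was that of Mycn, a proto-oncogene named after its value was seen. It read 6.40 and 6.69 in wild type, and 6.30 and 6.07 in Adar2-/- brain (-0.36, SE 0.148, limma adjusted p = 0.834).

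Among the 27 target clusters 17 had a negative and 10 a positive difference, or 63.0% negative beside 47.7% over all clusters. Their median was -0.035, and 19 of 27 were above the background limit on all 4 arrays. Hmga2, a chromatin protein and a widely studied let-7 target also named after its value was seen, differed by -0.02 (SE 0.121). The list shares Dicer1, Lin28a, Lin28b and Trim71 with the regulators. Nr2e1 aside, no target passed the test, and array signals of transcripts do not measure repression at the level of protein.

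**Figure D5:**
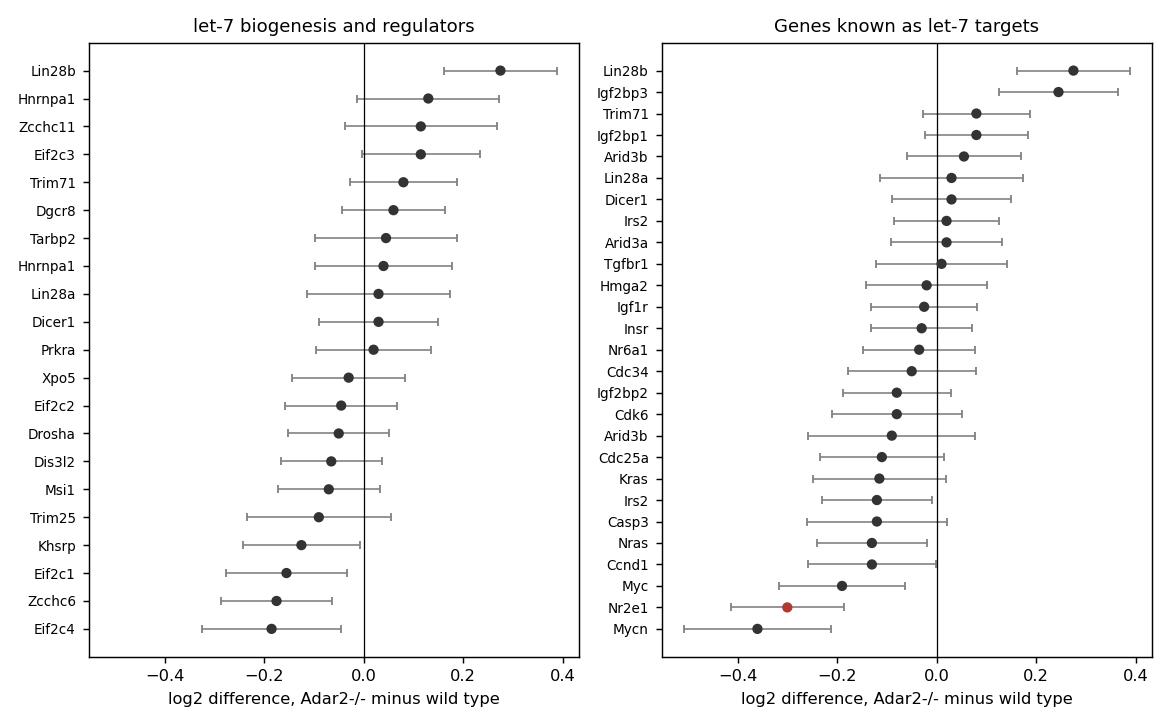
Difference between genotypes (log2, Adar2-/- minus wild type, bars are the SE of the limma fit) for 21 clusters of let-7 biogenesis and regulator genes (left) and 27 clusters of let-7 target genes (right). Nr2e1, in red, is the only cluster with an unadjusted p below 0.05, at -0.30.

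The clusters with a symbol whose pattern over the 4 arrays was most like that of Mirlet7c-2 were found by the root mean square difference of log2 signals, each centred on its own mean. The nearest was Fau, a ribosomal protein gene, at 0.193. It read 8.43 and 9.18 in wild type, and 7.25 and 7.23 in Adar2-/- brain. Adarb1 was next at 0.316, then Gm1976 at 0.332, with 8.15 and 8.39 in wild type, and 7.27 and 7.48 in Adar2-/- brain. The nearest let-7 member was Mirlet7f-1 at 0.49 and the farthest Mirlet7f-2 at 0.983. These are likenesses over 4 arrays only, between clusters chosen for them.

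RNA of 2 pituitary hormone genes differed between the arrays along with genotype. Of 6 clusters of pituitary markers, Prl and Gh passed an unadjusted p below 0.05, both higher in Adar2-/- brain. Lhb read 5.86 and 5.81 in wild type, and 5.96 and 5.94 in Adar2-/- brain. Tshb and the 2 clusters of Cga overlapped between genotypes. The log2 of the summed signal of all 6, carried by Prl and Gh, was 8.26 and 7.76 in wild type, and 11.14 and 10.33 in Adar2-/- brain. Prl, the prolactin gene, read 6.55 and 4.99 in wild type, and 10.11 and 9.66 in Adar2-/- brain. Gh, the growth hormone gene, read 6.30 and 5.68 in wild type, and 9.95 and 8.36 in Adar2-/- brain. The part of pituitary tissue in the values of Mirlet7c-2 and the other let-7 precursors was not tested.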

How the data were processed

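The authors deposited 1 table of normalized log2 signals, to 2 decimals, of 33793 transcript clusters on 4 Affymetrix whole-transcript gene arrays. Per the labels, RMA and Affymetrix Expression Console were used, with no version. Values on this scale are summarised over the probes of a cluster, so a shift of single probes cannot be seen. The number of arrays limits the precision. The table also holds the authors' genotype means, ratios, fold changes and p-values, which were not used.

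Under R 4.3.3, a linear model with a single genotype term was fitted to every cluster by lmFit and eBayes of limma 3.58.1, with two-sided tests, Benjamini-Hochberg adjustment over all 33793 clusters, no filter and no further normalization. The calculation was tested on simulated data of 2 against 2 arrays, with spreads drawn from the fit. At an adjusted p below 0.05 it recovered 44 of 100 log2 changes of 1 and 97 of 100 of 2. Members, neighbours (within 10 kb on the same strand, or holding a hairpin, plus the Mir99, Mir100 and Mir125 precursors), regulators and targets were chosen with earlier results of these data known. Named were all members, neighbours, Adarb1, listed genes with an unadjusted p below 0.05, and the 3 clusters closest to Mirlet7c-2. Other regulators, targets and markers were named after their values were seen. Of 25 regulator symbols, 20 were in the table, since older and newer symbols of 1 gene were listed. Sequences and hosts were read from RefSeq tables of GRCm38.p6 with Python 3.11.15 and pandas 2.3.3. Alternatives were other scalings, filters, variance models, background limits, a replicate block and leaving out each array.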

Additional observations from a re-analysis of the deposited data

How the results depend on the processing

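The difference of Mirlet7c-2 ranged from -1.77 to -1.24 and that of Mirlet7f-1 from -0.94 to -0.31. Where the genotypes do not overlap, leaving out an array or adding a balanced block cannot turn a sign, so these directions are no sign of stability. Of the 98 recomputed member differences 7 changed sign from a value other than 0, all 7 on leaving out an array. Mir98 ranged from -0.85 to 0.24 and Mirlet7d from -0.67 to 0.03. The members' median ranged from -0.12 to 0.002, the latter without Adar2-/- replicate 2. Median centring moved the median of all clusters from 0.005 to -0.035 and that of the members to -0.11. The number of members above background on all 4 arrays went from 1 to 0 at the 99th percentile of the olfactory receptor clusters, to 3 at the 90th, and to 3 against the brightest of 8 clusters of chosen Y-linked genes. It was 1 without each array in turn.

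Same-numbered arrays shared little deviation across clusters (correlation of deviations 0.0516), and whether they were paired is not stated. With a replicate block the members' median was -0.07, the neighbours past an unadjusted p went from 1 to 0, the regulators from 0 to 1 (Lin28b), and the 1 target was Lin28b in place of Nr2e1. Without shrinkage, the pooled-variance test called 15 clusters at an adjusted p below 0.05 in place of 0. At an unadjusted p below 0.05 it called 1 regulator (Dis3l2), 0 targets and, as the 1 neighbour, Wdr82 in place of Mir125b-1. Targets were 2, Nr2e1 and Mycn, under median centring, quantile normalization and with only clusters above the median signal, where neighbours were 0. Leaving out an array gave 0 to 1 neighbours and 0 to 1 targets. Mir125b-1 was lost without wildtype replicate 2 and replaced by Mir125a without Adar2-/- replicate 2, and Nr2e1 was lost without wildtype replicate 1 or either Adar2-/- replicate. The cause was not tested. Most let-7 clusters gave signals within the range of background, and how small a difference could be seen at such signals was not tested.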
